A study of Saccharomyces cerevisiae with 6 samples.

Results

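The genes described here encode 10 enzymes or enzyme subunits of the mitochondrial tricarboxylic acid cycle of budding yeast, Saccharomyces cerevisiae, other than succinate dehydrogenase. They are CIT1, ACO1, IDH1, IDH2, KGD1, KGD2, LSC1, LSC2, FUM1 and MDH1. They were chosen by name, with earlier results of these data known. All 10 were among the 5449 yeast genes that the arrays measured. Each was read by 1 probe set, a group of short probes for one transcript. The arrays compared strain PY014, with wild-type histone H2B, and strain WY317, whose H2B carries K111A (alanine in place of a lysine), with 3 arrays per strain. Per the labels, both strains were grown in YPD, a rich medium with glucose, to mid-log phase and harvested at an optical density between 0.35 and 0.7, and the same wild-type arrays also serve another H2B substitution, R102A, which is not analysed here. No other genotype or treatment is named for either strain. The labels number the samples but do not say whether they were separate cultures, so p-values here reflect only how far these samples differ among themselves, and that spread can be technical.

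The tricarboxylic acid cycle oxidises acetyl-CoA in the mitochondrial matrix and passes the electrons to the respiratory chain, and it also supplies 2-oxoglutarate and oxaloacetate for the synthesis of amino acids. In yeast growing on glucose most carbon is fermented to ethanol, and many genes of the cycle are kept low by glucose repression and raised by the HAP complex when respiration is needed. The steps up to 2-oxoglutarate, made by citrate synthase, aconitase and isocitrate dehydrogenase, can also be driven by the retrograde pathway of RTG1 and RTG3, which responds to the state of the mitochondria.

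The question put to these arrays was how the level of each cycle mRNA in the K111A mutant compared with wild type. Values were taken as linear intensities already scaled between arrays, with a mean over all probe sets of 146.4 to 148.2 on the 6 arrays. Arrays of one strain correlated at 0.997 to 0.998 over genes. Each probe set has its own response, so levels of different genes were not ranked against each other. All 10 genes read far above 3.7, the 99th percentile of the fission yeast probe sets on the same arrays, on every array. In bulk RNA of this kind, fewer cells with a transcript and less of it per cell cannot be told apart. The culture was checked by its cell type markers: all 5 a-cell marker genes measured read above that background on every array and summed to 2813 to 2867 in wild type and 2770 to 2835 in the mutant. Of the alpha-cell markers the receptor gene STE3 was measured, at 20.9 to 21.7 in wild type and 10.8 to 13.4 in the mutant. The mean intensity of STE3 changed by -45.4%, and it passed the test between the strains given below (limma, adjusted p = 0.00383). The cause was not tested. The mRNA of HTB1, a gene for the mutated histone, averaged 1280 ± 40.5 on the wild-type arrays and 1203 ± 50.5 on the mutant arrays (SD, n = 3 each), which does not check the strain labels because a substitution need not alter the mRNA level. HTB2, the other gene for H2B, read 3.8 to 4.1 in wild type and 3.5 to 4.0 in the mutant. These values lie about the background of 3.7, so its mRNA was not clearly detected in either strain. The cause of the low HTB2 values was not tested.

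None of the 10 cycle genes passed the test between the strains, and the differences were small. Their mean intensities in the mutant differed from wild type by between -4.15% and 11.0%. Differences are given as mutant minus wild type on a log2(intensity + 32) scale, which slightly understates the change of genes at these intensities. It understates the change of dim genes more. By limma with Benjamini-Hochberg adjustment over all genes, 0 of 10 had an adjusted p under 0.05, where 14.5% of all genes tested did (6.92% higher and 7.62% lower in the mutant). The unadjusted p was under 0.05 for 5 of 10, against 31.7% of all genes. The mutant arrays all lay above the wild-type arrays for 5 of 10 genes (CIT1, KGD2, LSC1, LSC2 and MDH1), where 18.2% of all genes did, and below them for 0 of 10, where 18.6% did (36.7% in either direction). The sign of the difference was positive for 9 and negative for 1, and the median difference was 0.088, beside -0.0005 over all genes.

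**Figure D1:**
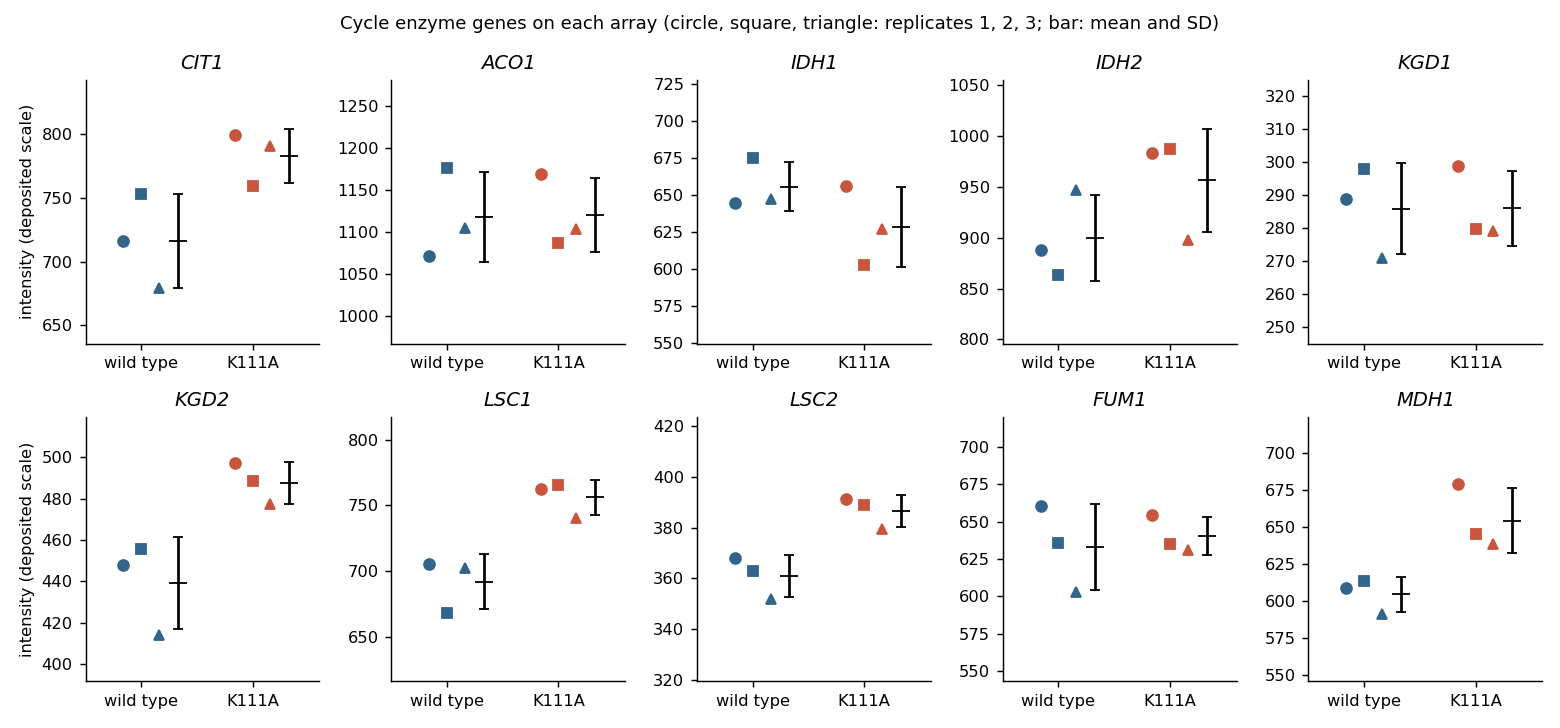
Deposited intensity of each of the 10 cycle genes on the 3 wild-type and 3 K111A arrays, with the mean and SD of each strain beside the points. Each vertical axis spans the same relative range around its gene's values and does not start at 0. The strains do not overlap for CIT1, KGD2, LSC1, LSC2 and MDH1.

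At the entry of the cycle, CIT1 and ACO1 gave unlike values. CIT1, the mitochondrial citrate synthase that joins acetyl-CoA to oxaloacetate, read 715.8, 753.2 and 679.4 on the wild-type arrays and 798.9, 759.1 and 790.5 on the mutant arrays. All mutant values were above all wild-type values, though wild-type array 2 and mutant array 2 were only a few units apart. The difference was 0.12 (SE 0.044, 95% interval 0.025 to 0.22), with an adjusted p of 0.0898. ACO1, the aconitase that turns citrate into isocitrate and also takes part in the upkeep of mitochondrial DNA, read 1071.5, 1176.3 and 1104.1 in wild type and 1169.3, 1086.7 and 1103.3 in the mutant. The strains overlapped fully, with a difference of 0.0034 and a 95% interval of -0.099 to 0.11.

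The NAD-dependent isocitrate dehydrogenase is built from a regulatory subunit, IDH1, and a catalytic subunit, IDH2, and the mRNAs of this pair differed from wild type in opposite directions without passing the test. IDH1 read 644.8, 675.0 and 647.1 in wild type and 656.3, 602.4 and 626.6 in the mutant. It was the single gene of the 10 with a negative difference, at -0.059 (95% interval -0.15 to 0.033, adjusted p = 0.354). Its strains overlapped because mutant array 1 lay above wild-type arrays 1 and 3. Without mutant array 1 its mutant values were all below wild type, where 23% of all genes were. IDH2 read 888.1, 863.8 and 946.6 in wild type and 983.3, 987.3 and 898.0 in the mutant, a difference of 0.085 (95% interval -0.027 to 0.20, adjusted p = 0.271). Here wild-type array 3 was high for its strain and mutant array 3 low. With either one of these arrays left out, the IDH2 values of the mutant were all above wild type, where 22.2% of all genes were without wild-type array 3 and 20.2% without mutant array 3.

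The 2-oxoglutarate dehydrogenase complex, which releases carbon dioxide and makes succinyl-CoA, showed the least and the most different of the 10 genes. KGD1, its decarboxylating E1 component, read 288.8, 297.9 and 271.0 in wild type and 298.9, 279.8 and 279.1 in the mutant. The means were nearly equal, at 285.9 ± 13.7 and 285.9 ± 11.2 (n = 3 each, with SD), with a difference of 0.0005 and a 95% interval of -0.099 to 0.10. KGD2, the lipoate-bearing E2 component that carries the succinyl group, read 447.9, 455.7 and 413.8 in wild type and 497.4, 488.3 and 477.2 in the mutant. Every mutant array was above every wild-type array, and wild-type array 3 was the lowest. Its difference of 0.14 (SE 0.042, 95% interval 0.047 to 0.24) was the largest of the 10, with an adjusted p of 0.0541.

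Succinyl-CoA ligase makes succinate and a nucleotide triphosphate, and the mRNAs of its alpha subunit, LSC1, and beta subunit, LSC2, were both higher on every mutant array. LSC1 read 705.5, 668.2 and 702.3 in wild type and 762.1, 765.3 and 740.5 in the mutant. The difference of 0.12 (SE 0.036, 95% interval 0.041 to 0.20) had an adjusted p of 0.0532, the lowest among the 10. LSC2 read 368.1, 363.1 and 351.7 in wild type and 391.5, 388.9 and 379.6 in the mutant. Its spread within a strain was among the smallest of the 10, and its difference was 0.092 (SE 0.034, 95% interval 0.014 to 0.17), with an adjusted p of 0.103.

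The last steps return the cycle to oxaloacetate. FUM1, the fumarase, which acts in mitochondria and in the cytosol, read 660.4, 636.0 and 603.1 in wild type and 654.8, 635.4 and 630.8 in the mutant. The mutant values lay within the wild-type range, with a difference of 0.016 (95% interval -0.076 to 0.11). MDH1, the mitochondrial malate dehydrogenase, read 608.9, 613.5 and 591.2 in wild type and 679.0, 645.1 and 638.4 in the mutant. All mutant arrays were above all wild-type arrays, mutant array 1 most of all, with a difference of 0.11 (SE 0.037, 95% interval 0.024 to 0.19) and an adjusted p of 0.0822. The 95% intervals of the 10 genes reached 0.077 to 0.11 to either side of the difference, so smaller differences could not be resolved with 3 arrays per strain. These intervals are not adjusted for the number of genes tested. Larger differences, up to 0.14 for KGD2, did not pass the adjusted threshold either.

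**Figure D2:**
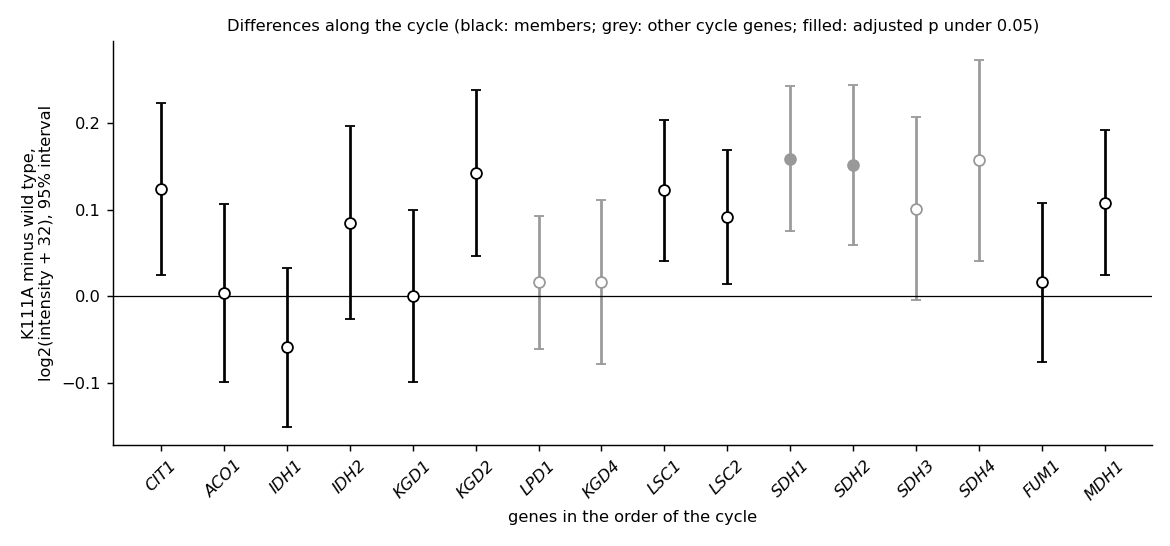
Mutant minus wild type on the log2(intensity + 32) scale for the cycle genes in the order of the reactions, with 95% intervals from limma. The 10 genes described here are black, the succinate dehydrogenase genes, LPD1 and KGD4 are grey, and filled points have an adjusted p under 0.05. The interval lies above 0 for CIT1, KGD2, LSC1, LSC2 and MDH1, and SDH1 and SDH2 are the filled points.

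Partner subunits of one enzyme were compared within each array, as the log2 value of one subunit minus that of the other; only the change of this difference between strains can be read, not its level. KGD2 minus KGD1 averaged 0.567 ± 0.012 on the wild-type and 0.709 ± 0.03 on the mutant arrays (SD, n = 3 each), and the arrays of the strains did not overlap. A two-sided exact permutation test of this change of 0.142 gave p = 0.1, the lowest value possible with 3 arrays on each side, and 0.3 when adjusted over the 3 pairs compared. IDH2 minus IDH1 averaged 0.437 ± 0.093 on the wild-type and 0.581 ± 0.095 on the mutant arrays, a change of similar size that overlapped between the strains (exact permutation p = 0.2, adjusted 0.3). LSC2 minus LSC1 moved by -0.031, also with overlap (exact permutation p = 0.5, adjusted 0.5).

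The deviations of the cycle genes over the 6 arrays were shared in part. When each gene was set against its own mean over the 6 arrays, the median of the 10 genes was -0.039, -0.011 and -0.071 on wild-type arrays 1, 2 and 3 and 0.068, 0.028 and 0.0043 on mutant arrays 1, 2 and 3, on the log2 scale. Medians over all genes stayed between -0.0063 and 0.011. Each gene's mean covers both strains, so these deviations hold the strain difference as well as the spread within a strain. Mutant array 1 lay above the gene's own mean for 10 of 10 genes and was the highest array for 5. Wild-type array 3 was the lowest array for 6 of 10. Without wild-type array 3 the median difference of the 10 genes was 0.081, and without mutant array 1 it was 0.0735. Leaving out wild-type array 3 also turned the sign of ACO1, KGD1 and FUM1, whose differences were near 0 in any case. Leaving out any 1 array left 0 of 10 genes past the threshold.

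**Figure D3:**
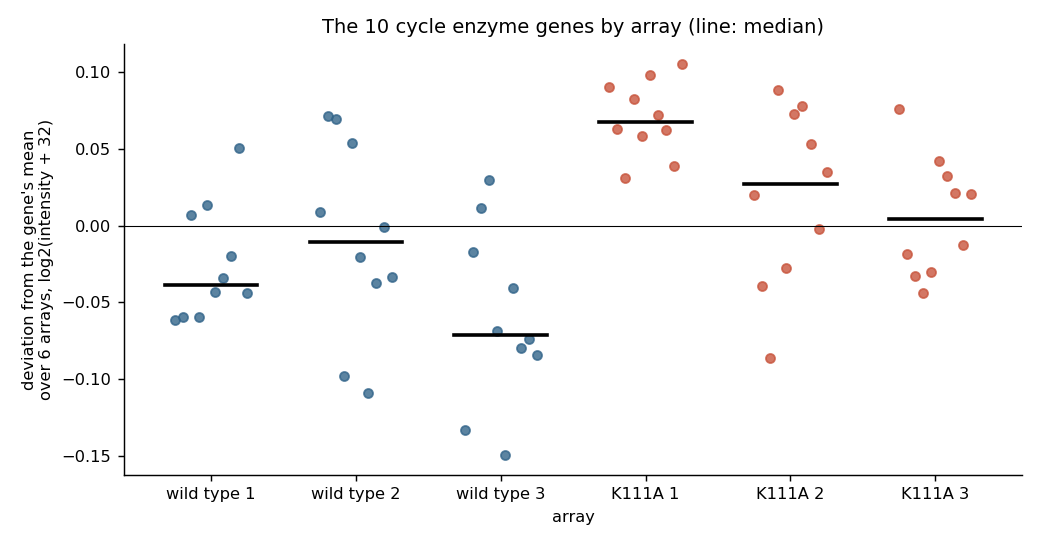
Deviation of each of the 10 cycle genes from its own mean over the 6 arrays, by array, on the log2(intensity + 32) scale, with a line at the median of the 10. Mutant array 1 has all 10 genes above 0, and wild-type array 3 has the lowest median, at -0.071.

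The ribosomal RNA controls differed between the strains beside these differences. The 17 ribosomal RNA control probe sets averaged 6.43 ± 0.12 on the wild-type and 6.69 ± 0.089 on the mutant arrays on the log2 scale (SD, n = 3 each), and wild-type array 3 had the lowest of these means, at 6.29. The log2 ratio of 5' to 3' probe sets of 11 yeast gene controls averaged -0.753 ± 0.061 on the wild-type and -0.769 ± 0.032 on the mutant arrays, and the strains overlapped. The part of the ribosomal RNA difference in the cycle gene differences was not tested.

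The rest of the cycle had a few called genes. Of 6 genes measured, the 4 subunits of succinate dehydrogenase together with LPD1 and KGD4, 2 rose and none fell, where 6.92% of all genes rose and 7.62% fell. SDH1, the flavoprotein that oxidises succinate, read 451.6, 449.4 and 443.4 in wild type and 526.5, 495.6 and 490.7 in the mutant (difference 0.16, adjusted p = 0.0258). SDH2, the iron-sulfur subunit, read 349.6, 333.6 and 317.4 in wild type and 382.6, 367.4 and 372.0 in the mutant (difference 0.15, adjusted p = 0.0398). The membrane anchors SDH3 and SDH4 also read higher on every mutant array, with differences of 0.10 and 0.16 that did not pass (adjusted p = 0.175 and 0.0726). LPD1, the lipoamide dehydrogenase that serves the 2-oxoglutarate and the pyruvate dehydrogenase complexes, and KGD4, a small subunit of the former that the array annotation lists as YMR31, both had a difference of 0.016 with overlapping strains. The SDH1 call was lost when any 1 of the 6 arrays was left out (adjusted p up to 0.0807, without mutant array 1), and the SDH2 call when any but wild-type array 1 was (up to 0.118, without mutant array 1). Their differences then ran from 0.129 to 0.177 and from 0.120 to 0.184. Over all genes, calls also dropped from 792 to between 213 and 559 when 1 array was left out.

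Isoenzymes of the cycle enzymes did not pass the test. Of 8 listed, 7 were measured and 0 were called by limma, where 14.5% of all genes were, and 1 had an unadjusted p under 0.05, where 31.7% did. IDP2, the cytosolic NADP-dependent isocitrate dehydrogenase, read 38.3, 39.6 and 38.1 in wild type and 55.0, 42.7 and 47.3 in the mutant, with no overlap, a difference of 0.18 and an adjusted p of 0.0517. CIT2, the peroxisomal citrate synthase whose gene is the classic target of the retrograde pathway, had a difference of 0.13 with overlapping strains and an interval of -0.029 to 0.29. The mitochondrial IDP1, the cytosolic MDH2, and the peroxisomal MDH3 and IDP3 had differences of 0.020, 0.038, 0.048 and 0.0085. CIT3, a minor mitochondrial citrate synthase, was dim at 12.7 ± 1.00 and 11.6 ± 0.945 (SD, n = 3 each), with a difference of -0.036.

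Among 8 regulators 1 rose and none fell, beside 6.92% and 7.62% of all genes. HAP4, the activating subunit of the HAP complex, read 201.1, 216.4 and 187.7 in wild type and 248.1, 225.8 and 243.8 in the mutant. All mutant values lay above all wild-type values, with a difference of 0.22 (SE 0.052, 95% interval 0.097 to 0.33) and an adjusted p of 0.029. Leaving out wild-type array 1 or 3, or mutant array 1 or 3, ended the call (adjusted p = 0.0695, 0.0619, 0.0909 and 0.103). The DNA-binding subunits HAP2, HAP3 and HAP5 had differences of 0.0045, -0.040 and -0.11, none past the threshold. HAP5 read lower on every mutant array (adjusted p = 0.0822). Of the retrograde pathway, RTG2, the cytoplasmic sensor, had a difference of 0.11 and MKS1, its negative regulator, one of -0.16, each without overlap between the strains and not past the threshold (adjusted p = 0.138 and 0.0907). The transcription factor genes RTG1 and RTG3 had differences of -0.018 and 0.019 with overlapping strains.

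**Figure D4:**
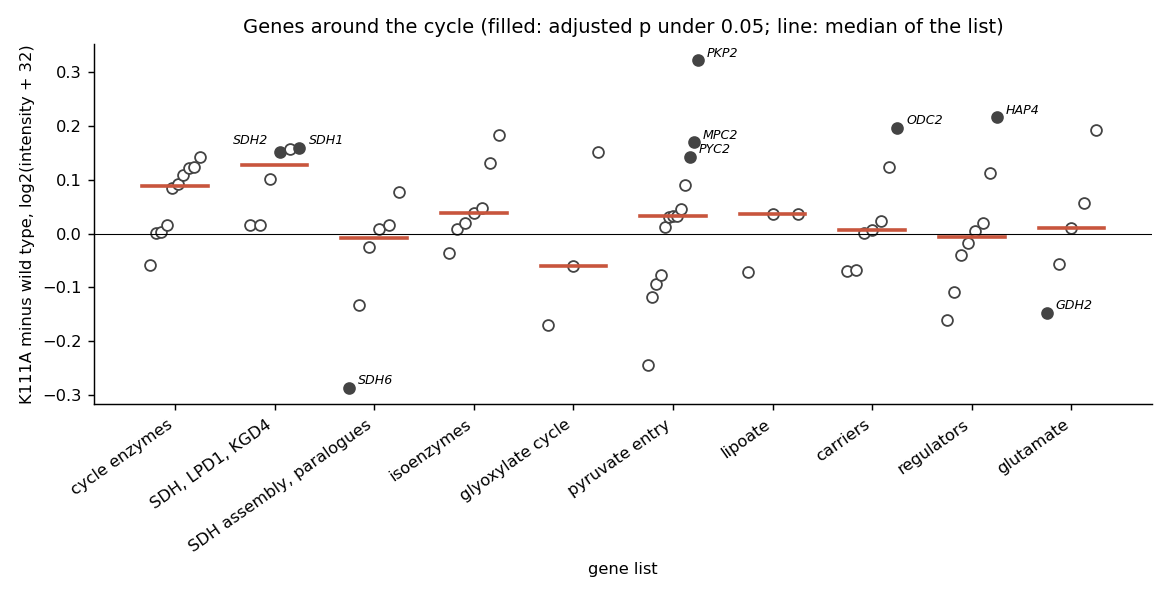
Mutant minus wild type on the log2(intensity + 32) scale for the cycle genes and for 9 lists of genes around the cycle, 1 point per gene, with a line at each list's median. Filled and named points have an adjusted p under 0.05. The 10 cycle enzyme genes have no filled point and a median of 0.088.

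In the supply of pyruvate to the cycle 3 of 13 measured genes rose and none fell, where 6.92% and 7.62% of all genes did. PKP2, a kinase that phosphorylates and so restrains pyruvate dehydrogenase, read 46.2, 44.2 and 49.4 in wild type and 67.5, 61.8 and 69.4 in the mutant. It had the largest difference of any gene listed around the cycle, 0.32 (SE 0.043, adjusted p = 0.0043), and stayed past the threshold in all 15 alternatives with the same threshold. MPC2, a subunit of the mitochondrial pyruvate carrier, rose by a difference of 0.17 (adjusted p = 0.0258), and PYC2, a pyruvate carboxylase that makes oxaloacetate, by one of 0.14 (adjusted p = 0.026). The MPC2 call was lost when any array but wild-type array 3 was left out (adjusted p up to 0.0828, without mutant array 1), and the PYC2 call when any but wild-type array 2 was (up to 0.0885, without mutant array 3). The 13 differences were positive for 9 and negative for 4. PYC1, the other pyruvate carboxylase gene listed, had one of -0.24 with overlapping strains (adjusted p = 0.163). PKP1, also a kinase of pyruvate dehydrogenase, and the pyruvate dehydrogenase gene PDA1 read lower on every mutant array. Their differences were -0.12 and -0.094 (adjusted p = 0.0874 and 0.108). MPC1, also of the pyruvate carrier, had a difference of -0.076 with overlapping strains.

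Of 7 carriers of cycle intermediates 1 rose (6.92% of all genes did), ODC2, which exchanges 2-oxoglutarate and related acids across the inner membrane. It read 416.8, 402.9 and 406.8 in wild type and 466.2, 451.6 and 502.4 in the mutant (difference 0.20, adjusted p = 0.0216), and the call ended when wild-type array 2 (0.0547) or either of mutant arrays 1 (0.0551) and 3 (0.0728) was left out. The 7 carrier differences were positive for 5 and negative for 2. YHM2 read lower on every mutant array (difference -0.070, adjusted p = 0.183), and ODC1 had a difference of -0.067 with overlapping strains. Among 6 measured assembly factors and paralogues of succinate dehydrogenase 1 fell (7.62% of all genes did), the assembly factor SDH6. It read 121.5, 135.2 and 124.6 in wild type and 99.7, 95.4 and 99.9 in the mutant (difference -0.29, adjusted p = 0.00541), opposite in sign to SDH1 and SDH2, and stayed past the threshold in the same 15 alternatives. Of 5 genes of glutamate metabolism 1 likewise fell against that 7.62%, GDH2, which breaks glutamate down to 2-oxoglutarate, from 284 ± 10.2 to 253 ± 2.97 (SD, n = 3 each, adjusted p = 0.0301). That call ended when wild-type array 1 (0.0758) or any mutant array (0.069, 0.081 and 0.103 for arrays 1, 2 and 3) was left out. The 5 differences of this list were positive for 3 and negative for 2. GDH1, also in it, read higher on every mutant array (difference 0.19, adjusted p = 0.0551). None of the 3 glyoxylate cycle and 3 lipoate genes passed, though 2 of the former had an unadjusted p under 0.05, as did 31.7% of all genes.

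Together 58 measured genes around the cycle, without the 10 described first, had 7 that rose and 2 that fell, or 15.5%, close to the 14.5% of all genes, with a median difference of 0.018. Of those 9 genes 4 stayed past the threshold without wild-type array 1, 5 without wild-type array 2 or 3, 4 without mutant array 2, and 2 (SDH6 and PKP2) without mutant array 1 or 3. With a pseudocount of 1 in place of 32, 3 stayed past it (SDH6, PKP2 and ODC2), and the other 6 had adjusted p from 0.0541 to 0.0744. A list of 6 genes repressed by glucose outside the cycle was read as a check of growth stage. Of these 1 rose and none fell, where 6.92% and 7.62% of all genes did. ADH2, the alcohol dehydrogenase that consumes ethanol, rose from 233 ± 7.51 to 313 ± 25.7 (SD, n = 3 each, adjusted p = 0.0056), and the other 5 did not pass. The 6 differences were positive for 4 and negative for 2. ACS1 read lower on every mutant array (difference -0.19, adjusted p = 0.0873), and ALD4 had a difference of -0.059 with overlapping strains. The summed intensity of the list was 794.2 to 841.3 in wild type and 826.0 to 898.5 in the mutant, with overlap, and none of its genes was at background. Its part in the cycle gene differences was not tested.

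The genes whose deviations over the 6 arrays lay nearest to the mean profile of the 10 cycle genes were IMD4, STB3, HYP2, TPC1 and IRA1. Likeness was the root mean square difference of log2 deviations, which was 0.0132 for IMD4 and 0.0148 for IRA1. Among the cycle genes themselves it ran from 0.0212 for LSC2 to 0.0667 for IDH1, although each contributes to the profile. Of 5439 other genes 42 were nearer than LSC2, and the differences of the 5 nearest, 0.041 to 0.076, did not pass the test. The mean profile itself was small, from -0.061 on wild-type array 3 to 0.070 on mutant array 1. A gene that varies little over the arrays therefore also lies near it, so nearness here need not mean a shared pattern.

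The position of the 10 genes relative to the threshold depended on the processing for a few. LSC1 had an adjusted p under 0.05 in 4 of the 15 alternatives with the same threshold, KGD2 in 3 and MDH1 in 1, none of which left out an array. CIT1 and LSC2 reached adjusted p of 0.0547 and 0.0612 at the lowest. ACO1, IDH1, IDH2, KGD1 and FUM1 had adjusted p of 0.146 or more in all 15.

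**Figure D5:**
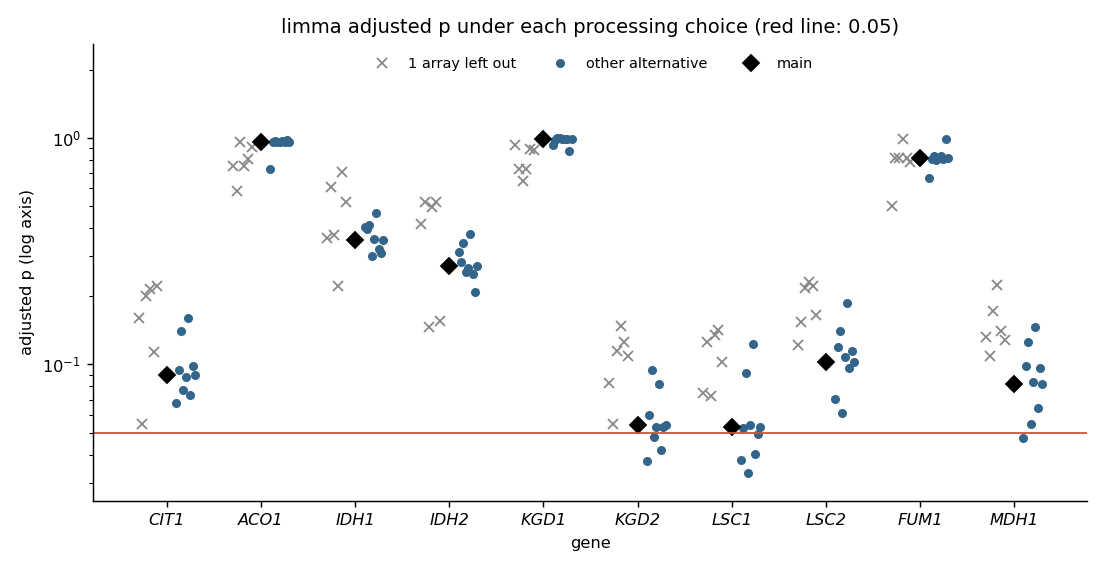
Adjusted p from limma for each of the 10 cycle genes with the reported settings (diamonds), with 1 array left out (crosses) and under the other processing alternatives (circles), on a log axis. Circles fall under the line at 0.05 for KGD2, LSC1 and MDH1, and no cross does.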

How the data were processed

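RNA of 6 samples was measured on single-channel arrays with biotin-labelled cRNA, per the labels. The deposited intensity values were taken as linear and already on a common scale, as the array means were alike. How the authors summarised and scaled the arrays is not stated in the labels or the table. Of 10928 probe sets, 7244 have 1 gene symbol in the array annotation, 1 has several and 3683 have no annotation row. By gene identifier 5498 match the RefSeq R64 table, used for names, and 1746 belong to fission yeast and served as background. For 47 genes with several probe sets the brightest was kept, leaving 5449. No genome build is named for the table, so no coordinates are given, and the sequences were not used here.

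Values were analysed as log2(intensity + 32) and fitted in R 4.3.3 with limma 3.58.1 (lmFit, then eBayes; 8.91 degrees of freedom), with no further normalization. The tests were two-sided, p-values were adjusted over all genes by Benjamini-Hochberg, and the threshold was 0.05. Standard errors and 95% intervals are limma's. The number of arrays limits the precision. The procedure was tested on simulated data. The members and lists were chosen with earlier results of these data known. Named are all members, every measured gene of the cycle, isoenzyme and regulator lists, genes past the threshold in the other lists, and the 5 nearest profiles. HTB1, HTB2 and STE3 were named as checks. ACS1, ALD4, PYC1, PKP1, PDA1, MPC1, YHM2, ODC1 and GDH1 were named for differences opposite in sign to the called genes of their lists. Alternatives were quantile and median scaling, pseudocounts of 1 and 100, leaving out dim genes, a replicate block, a trended variance prior, array weights, averaging of probe sets, a threshold of 0.1 and leaving out each array. Figures were drawn with matplotlib 3.10.9.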

Additional observations from a re-analysis of the deposited data

How the results depend on the processing

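Of the 10 cycle genes 0 passed the threshold with the reported settings. With quantile normalization 3 did (KGD2, LSC1 and MDH1). A pseudocount of 100 and a trended robust variance prior each gave 2 (KGD2 and LSC1). Array weights gave 1 (LSC1), and a threshold of 0.1 gave 4 (CIT1, KGD2, LSC1 and MDH1). Over all 5449 genes, where 792 passed with the reported settings, these settings gave 904, 772, 829, 802 and 1308 in the order named. Leaving out 1 array gave 0 of the 10 cycle genes each time. Their median difference stayed between 0.0735 and 0.11 in all alternatives. The sign of ACO1 turned with quantile normalization (-0.018) and ran from -0.027 to 0.040 with 1 array left out. KGD1 turned with array weights (-0.012) and ran from -0.034 to 0.028, and FUM1 ran from -0.017 to 0.046. The cause was not tested. The change of KGD2 minus KGD1 stayed between 0.125 and 0.157, that of IDH2 minus IDH1 between 0.0921 and 0.189, and that of LSC2 minus LSC1 between -0.058 and -0.003. Of the 58 genes around the cycle, 9 passed with the reported settings, 3 with a pseudocount of 1, 16 at a threshold of 0.1, and 2 to 7 with 1 array left out. Over all genes 792 became 489, 1308, and 213 to 559 in the same settings.

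The labels give both strains replicates 1 to 3. Deviations of same-numbered arrays from their strain means correlated at -0.234, -0.058 and -0.169 over genes, and those of the other pairs at -0.042 to 0.256. The deviations of the 3 arrays of a strain sum to 0, so these correlations depend on each other. They cannot tell whether same-numbered arrays were handled together. With the replicate block 0 of the 10 cycle genes, 3 of the 58 genes around the cycle (SDH6, PKP2 and ODC2) and 346 of all genes passed. SDH1, SDH2, MPC2, PYC2, HAP4 and GDH2 had adjusted p from 0.062 to 0.0791 there.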
